A study of Arabidopsis thaliana with 6 samples.

Results

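COR15A (AT2G42540), COR47 (AT1G20440) and KIN2 (AT5G15970) are stress genes of Arabidopsis thaliana that are known for their induction by cold, water loss and abscisic acid. They were taken by gene from the 16548 genes with a name and a test on the array, where each of the 3 had 1 row. Roots of Col-0 WT plants, the common laboratory accession, were compared after hydroponic culture at 22 °C under short days for 8 weeks. One group received 150 µM sodium thiosulfate as its sulfur source, and the other received 300 µM sodium sulfate. The concentration of the salt thus differed along with the form of sulfur, and these cannot be told apart here. All plants grew in a nutrient solution whose own sulfate had been exchanged for chloride, and each group had 3 one-colour Affymetrix arrays labelled as biological replicates. No group was chilled, dried or given abscisic acid, so the comparison asks how these stress genes stood in roots when thiosulfate, a more reduced form of sulfur, replaced sulfate.

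In the cold, CBF transcription factors bind the C-repeat element in the promoters of COR and KIN genes and switch them on. Dehydration and abscisic acid reach many of the same promoters through bZIP factors of the ABF family, which is why these genes serve as readouts of both cold and osmotic stress. COR15A is a late embryogenesis abundant (LEA) protein that enters the chloroplast and protects membranes when freezing draws water from the cell. COR47 is an acidic dehydrin, a LEA protein of another class, and KIN2, also called COR6.6, is a very small hydrophilic protein.

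The values are log2 levels made with RMA by the authors. Over the genes tested, arrays of one group correlated at 0.980 to 0.983, and arrays of different groups at 0.974 to 0.982. The number of arrays limits the precision, and the 95% interval of a change reached 0.39 (log2) to either side at the median. The labelled tissue was checked on the few markers named on the array, 3 of 12 for root and 2 of 10 for green tissue. PYK10, a root beta-glucosidase, was listed at 10.27, 9.10 and 9.77 on the thiosulfate arrays and at 9.40, 8.50 and 8.97 on the sulfate arrays. The root hair expansins EXPA7 and EXPA18 lay between 2.14 and 3.33 over all 6 arrays, in the third of 5 equal bins of level. Of the genes that mark green tissue, RCA, the Rubisco activase, and LHCB4.1, an antenna protein of photosynthesis, lay between 2.35 and 3.80. RCA lay in the fourth bin and LHCB4.1 in the third. Their means over all arrays, 3.71 and 3.08, were above those of EXPA7 (2.74) and EXPA18 (2.51), though probe sets differ in brightness. Of the root markers only PYK10 was thus listed above the green ones. The means of all 3 root markers were higher and those of both green markers lower in thiosulfate, and none of the 5 passed the limma test over all genes. PYK10 had the largest of these differences, 0.76 (95% interval 0.06 to 1.46, limma adjusted p = 0.46), and its groups overlapped.

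None of the 3 stress genes changed between thiosulfate and sulfate by limma at an adjusted p of 0.05, as did 0.0121% of all genes tested (AT1G15540 and AGL89). At an unadjusted p under 0.05 the count was 0 of 3 members, against 10.0% of all genes. COR15A had a lower mean in thiosulfate, while COR47 and KIN2 had higher means. In each of the 3 genes the values of the groups overlapped. As whole roots were used, a change in the number of cells that express a gene and a change in RNA per cell cannot be told apart.

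COR47 was the bright member. It was listed at 7.66, 7.44 and 6.99 (log2) on thiosulfate replicates 1, 2 and 3, and at 7.06, 7.43 and 6.98 on sulfate replicates 1, 2 and 3. On every array, 96.8% to 98.5% of the genes tested had a lower listed value than COR47. The dehydrin transcript was thus read far above the dim end in both groups, though probe sets differ in brightness and the position is one of listed values. Thiosulfate replicate 1 was the highest array, thiosulfate replicate 2 and sulfate replicate 2 stood within 0.01 of each other, and the third replicate was the lowest of each group. In the brightest of the 5 bins, where COR47 lay, thiosulfate replicate 1 was the highest array too. The median of that bin was 5.90, 5.76 and 5.76 on the thiosulfate arrays and 5.75, 5.73 and 5.75 on the sulfate arrays. The part of this in the difference of COR47 was not tested. COR47 averaged 7.36 ± 0.34 in thiosulfate and 7.16 ± 0.24 in sulfate (SD, n = 3 each). The difference was 0.21 (SE 0.21, 95% interval -0.26 to 0.67), with a limma adjusted p of 0.79 and a two-sided exact permutation p of 0.4. As a ratio the interval with all arrays ran from 0.835 to 1.59. Its upper end was 0.67 (log2) with all arrays and 0.85 without sulfate replicate 2. The 3 thiosulfate arrays spanned 0.67, more than the difference between the means. Against the sulfate mean, thiosulfate replicates 1 and 2 lay 0.50 and 0.28 above it, and replicate 3 had a difference of -0.16. Without thiosulfate replicate 1 the difference was 0.06, and without thiosulfate replicate 3 it was 0.39 (limma adjusted p = 0.54).

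KIN2 stood near the middle of the listed values, in the third of the 5 bins. Its levels were 2.29, 1.84 and 2.38 on the thiosulfate arrays and 1.43, 2.22 and 2.07 on the sulfate arrays, each in the order of replicates 1, 2 and 3. Sulfate replicate 1 stood apart below the other 5 arrays, and thiosulfate replicate 2 lay below sulfate replicates 2 and 3. KIN2 averaged 2.17 ± 0.29 in thiosulfate and 1.90 ± 0.42 in sulfate (SD, n = 3 each). The difference of 0.26 (SE 0.23, 95% interval -0.27 to 0.79) had a limma adjusted p of 0.75 and a two-sided exact permutation p of 0.5. The interval corresponds to ratios from 0.832 to 1.73. The arrays spanned 0.54 within thiosulfate and 0.79 within sulfate, both more than the difference between the means. Without sulfate replicate 1 the difference of KIN2 was 0.03 (limma adjusted p = 0.98), so most of it rested on this array.

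COR15A was listed at the dim end in both groups. It read 0.59, 0.69 and 0.85 on thiosulfate replicates 1, 2 and 3, and 1.15, 0.84 and 1.09 on sulfate replicates 1, 2 and 3. Only thiosulfate replicate 3 and sulfate replicate 2 overlapped, by 0.01, and the other arrays of each group lay apart. Of all genes tested, 1.41% to 16.96% had a lower listed value on a given array. The means were 0.71 ± 0.13 in thiosulfate and 1.03 ± 0.16 in sulfate (SD, n = 3 each), a difference of -0.31 between listed values (SE 0.15, 95% interval -0.66 to 0.03). Its limma adjusted p was 0.53, its unadjusted limma p was 0.070, and its two-sided exact permutation p was 0.2, where 0.1 is the smallest that 3 arrays against 3 allow. The dimmest of the 5 bins had a median level of 0.987, which lay above the thiosulfate mean and just under the sulfate mean. No detection call was used, so the difference of COR15A is one between listed values and not a measured fold of transcript.

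The dim end of the arrays stood lowest on an array of the thiosulfate group. The median of the dimmest of the 5 bins was 0.83, 1.01 and 0.95 on the thiosulfate arrays and 1.01, 1.01 and 0.97 on the sulfate arrays, with thiosulfate replicate 1 the lowest, as for COR15A, and thiosulfate replicate 2 as high as sulfate replicates 1 and 2. Measured from that median on each array, COR15A lay at -0.24, -0.32 and -0.09 in thiosulfate and at 0.14, -0.17 and 0.11 in sulfate. The difference between the groups was then -0.24. The part of the dim end in the remaining difference was not tested.

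**Figure D1:**
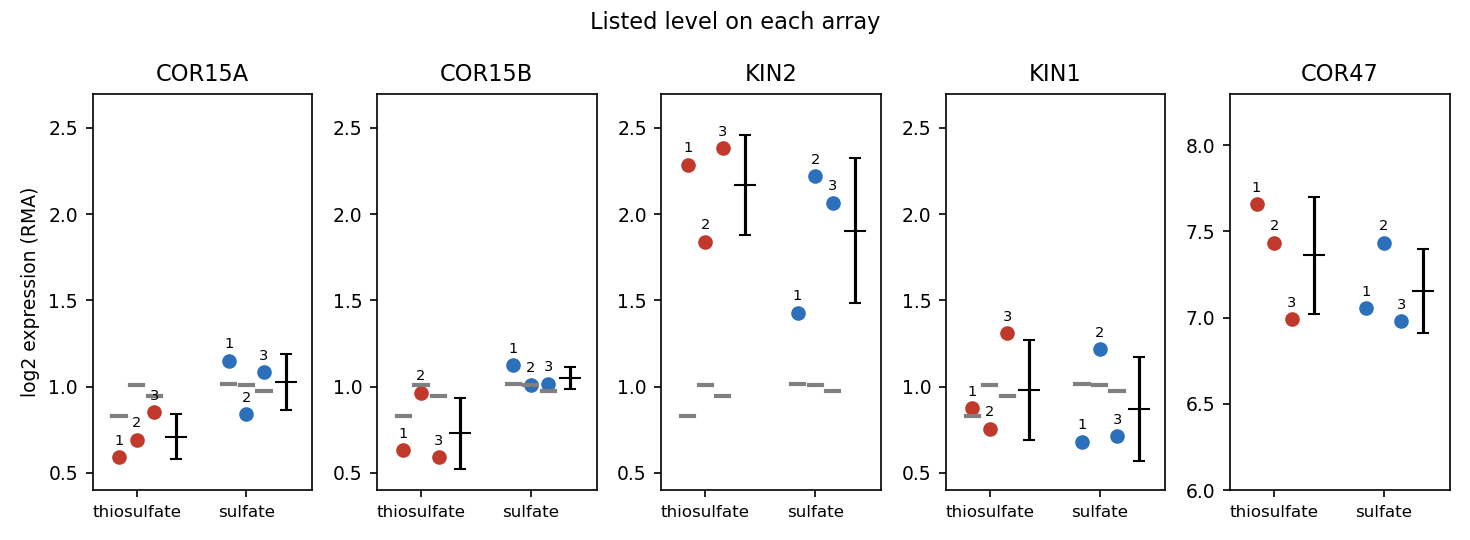
Each panel plots the log2 level of one gene on the 3 thiosulfate arrays (red, left) and the 3 sulfate arrays (blue, right), with the replicate number above each point, the mean and SD in black, and the median of the dimmest of 5 bins of genes on that array as a grey bar (not drawn for COR47). The panels cover spans of equal height, and COR15A and COR15B lie around the grey bars, KIN2 lies above them and is lowest on sulfate replicate 1 (1.43), and COR47 lies between 6.98 and 7.66.

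The genes next to the members were read as well. In the RefSeq annotation each member lies next to a related gene, with no protein-coding gene between: COR15A beside its close copy COR15B, KIN2 beside KIN1, which encodes a near-identical protein, and COR47 beside ERD10, another dehydrin. COR15B and KIN1 were named on the array, and ERD10 was not analysed here. COR15B was listed at 0.63, 0.97 and 0.59 in thiosulfate and at 1.13, 1.01 and 1.02 in sulfate. All its thiosulfate arrays lay below all its sulfate arrays, as for 7.57% of all genes tested, and its difference of -0.32 (95% interval -0.67 to 0.03, limma adjusted p = 0.53) is again one of dim listed values. KIN1 was listed at 0.87, 0.76 and 1.31 in thiosulfate and at 0.68, 1.22 and 0.71 in sulfate, with overlapping groups and a difference of 0.11 (-0.36 to 0.57). KIN1 and KIN2 were both lowest on sulfate replicate 1 and both highest on thiosulfate replicate 3, while the arrays between stood in different orders. How far probes for one of these copies read the other was not tested.

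The members were also compared with each other within each array, since a shift that is equal for all genes of an array cancels there. A shift that differs between dim and bright genes does not cancel. Thiosulfate replicate 1 had the lowest median in the dimmest bin (0.83) and the highest in the brightest bin (5.90). The part of this in the differences between members was not tested. The change of COR15A minus that of COR47 was -0.52, and minus that of KIN2 it was -0.58. COR47 and KIN2 differed by -0.06 in their changes. Over these 3 pairs the two-sided exact permutation p-values were 0.2, 0.2 and 0.9, or 0.3, 0.3 and 0.9 after Benjamini-Hochberg adjustment. No pair of members was therefore shown to change differently, and this permutation test of 3 arrays against 3 cannot give a p below 0.1.

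For each member, the genes with the most like pattern were those with the smallest root mean square difference of the 6 log2 values after each gene was centred on its own mean. Genes were compared where their SD over the arrays was at least 0.5 times that of the member. Among 15253 such genes for COR15A, the nearest were AT1G46984 (root mean square difference 0.045), AT3G11000 (0.053) and AT1G43810 (0.053), against a median of 0.286. Nearest to COR47 among 13506 genes were AT4G24275 (0.052), AT3G29630 (0.059) and AT2G19160 (0.061), against a median of 0.358. Nearest to KIN2 among 11372 genes were AT3G15680 (0.077), AT1G70780 (0.093) and UBP20 (0.097), a ubiquitin-specific protease, against a median of 0.424. The neighbour KIN1 ranked 341 of the 11372 by likeness to KIN2, and COR15B ranked 1454 of 15253 by likeness to COR15A. With 6 arrays and this many genes some close patterns are always found, and these are given as descriptions.

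Of 49 listed genes of the cold regulon and its regulators, 9 were named on the array, the 3 members and both neighbours among them. None passed the limma test over all genes. None had an unadjusted p under 0.05 as deposited, against 10.0% of all genes. After median centring COR15A and COR15B did, both lower, against 11.3% of all genes in either direction and 1286 of 16548 lower. The means of the 9 were higher in thiosulfate for 3 (COR47, KIN2 and KIN1) and lower for 6, where 52.9% of all genes were lower. The median change of the 9 was -0.23, against -0.016 over all genes tested. The CBF genes, ICE1 and RD29A were not analysed here. STZ, the zinc finger repressor also called ZAT10, was listed at 6.72, 5.82 and 6.29 in thiosulfate and at 6.68, 6.55 and 6.44 in sulfate. Its difference of -0.28 (95% interval -0.78 to 0.22) rested on thiosulfate replicates 2 and 3, as replicate 1 was the highest of the 6 arrays. COR27, a cold-regulated gene tied to the circadian clock, had a difference of -0.23 (-0.67 to 0.21). The dehydrin gene LTI30, named to complete the list, was listed at 4.12, 4.20 and 3.38 in thiosulfate and at 3.67, 4.20 and 4.23 in sulfate (difference -0.13, interval -0.69 to 0.43). The last of the 9, AT4G33980, also named to complete the list, had a difference of -0.23 (-0.65 to 0.19) at a mean level of 6.53.

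Of 50 listed genes of the abscisic acid and osmotic response, 5 were named, and only KIN1 and HVA22C add to the 3 members. None passed by limma. In thiosulfate 4 had higher means and 1, COR15A, a lower one, where 52.9% of all genes had a lower mean. The median change was 0.21, which is the change of COR47 itself, against -0.016 over all genes tested. HVA22C belongs to a family named after an abscisic acid-induced gene of barley. It was listed at 3.23, 2.78 and 2.78 in thiosulfate and at 2.37, 2.25 and 2.16 in sulfate. Every thiosulfate array lay above every sulfate array, as for 7.11% of all genes tested. HVA22C was the 1 of the 5 with an unadjusted limma p under 0.05 as deposited, against 5.39% of all genes on the higher side. After median centring COR15A joined it on the lower side, where 1286 of the 16548 genes tested were lower at that p. HVA22C differed by 0.67 (95% interval 0.29 to 1.05), with an unadjusted limma p of 0.0032 and a limma adjusted p of 0.31 over all genes. It had the largest difference of any measured gene of the cold, abscisic acid, KIN and LEA lists, and it did not pass the correction. The root marker PYK10 was higher in thiosulfate by a like amount (0.76), and its part in the difference of HVA22C was not tested.

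**Figure D2:**
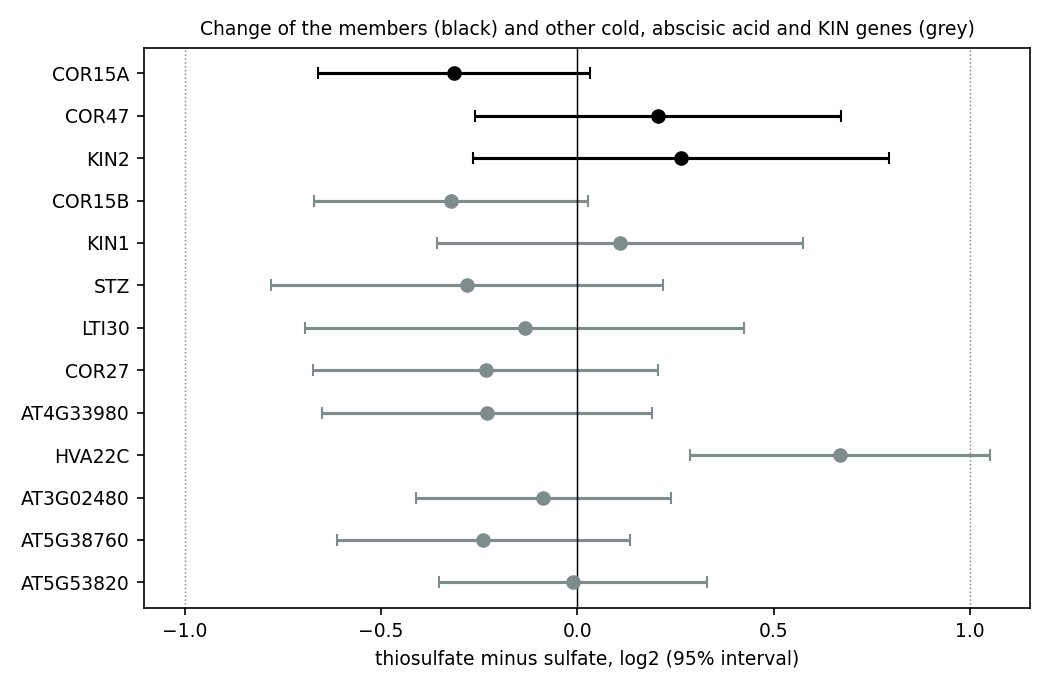
Points are the thiosulfate minus sulfate differences in log2 level and bars their 95% intervals by limma, for the 3 members in black and for the other named genes of the cold, abscisic acid and KIN lists in grey, with dotted lines at 2-fold in either direction. The intervals of all genes except HVA22C (0.29 to 1.05) include 0.

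The KIN family list held 5 genes, all of them measured. Beside KIN2 and KIN1 these were AT3G02480, AT5G38760 and AT5G53820, for which the annotation used here gives no name. AT5G53820 was read at 3.31, 3.69 and 3.53 in thiosulfate and at 3.54, 3.45 and 3.57 in sulfate, a difference of -0.01 (95% interval -0.35 to 0.33). AT3G02480 had a difference of -0.09 (-0.41 to 0.24) and AT5G38760 one of -0.24 (-0.61 to 0.13), at mean levels of 1.43 and 1.003. By limma none of the 5 passed, against 0.0121% of all genes, and none had an unadjusted p under 0.05, against 10.0%. A count of 0 among 5 genes is near that share. The median change was -0.011.

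The LEA family, to which COR15A and COR47 belong, gave the widest view, with 36 of 51 listed members measured. None passed the limma test over all genes (adjusted p from 0.43 to 0.997). At an unadjusted p under 0.05, 0 were higher and 3 were lower in thiosulfate as deposited, against 5.39% and 4.64% of all genes. With quantile normalization applied again 0 were higher and 4 lower at that p, where 1050 of all 16548 genes were lower. With arrays centred on their medians 0 were higher and 5 lower, where 1286 of all genes were lower. The means of 27 members were lower and those of 9 higher in thiosulfate, where 52.9% of all genes had a lower mean. After median centring, which lowers every thiosulfate minus sulfate difference alike, 31 were lower and 5 higher, where 64.9% of all genes were lower. The median change was -0.18, against -0.016 over all genes. In 5 members the thiosulfate arrays lay all below the sulfate arrays and in 2 all above, against 7.57% and 7.11% of all genes.

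Most of the measured LEA genes had dim listed values, though probe sets differ in brightness. In the dimmest 2 of the 5 bins lay 21 of the 36, against 6619 of all 16548 genes. Of the 21, 18 (85.7%) had a lower mean in thiosulfate, as did 66.0% of all genes in those bins. Of the 15 brighter members 9 were lower, against 44.2% of all brighter genes. The largest differences were those of AT2G18340 (-0.48, 95% interval -0.95 to -0.01), AT5G53260 (-0.44, -0.82 to -0.06), AT4G39130 (-0.42, -0.81 to -0.02), AT1G72100 (-0.36, -0.80 to 0.07) and AT2G46140 (0.36, -0.08 to 0.80). AT2G18340, of which the brighter of its 2 rows was used, was listed at 1.83, 2.39 and 2.59 in thiosulfate and at 2.76, 2.90 and 2.60 in sulfate. AT1G72100 was even in sulfate, at 2.50, 2.52 and 2.53, and its thiosulfate values of 1.74, 2.45 and 2.28 were lowest on replicate 1. It lay in the third bin. The median of that bin was 2.35, 2.37 and 2.39 on the thiosulfate arrays and 2.36, 2.38 and 2.34 on the sulfate arrays. Without thiosulfate replicate 1 the median change of the 36 LEA genes was -0.11, and the part of the dim end in this was not tested.

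Only 4 LEA genes were read in the brightest of the 5 bins, COR47 among them. AT1G54410, DI21 and AT2G23120, the others, were named after their values were seen. AT1G54410 was listed at 7.70, 7.29 and 7.42 in thiosulfate and at 6.93, 7.26 and 7.15 in sulfate. Every thiosulfate array of AT1G54410 lay above every sulfate array, as for 7.11% of all genes tested. Its difference of 0.35 (95% interval -0.02 to 0.73) had a limma adjusted p of 0.52. DI21, a drought-induced gene, had a difference of 0.01 (-0.51 to 0.52), which became -0.05 with quantile normalization applied again and -0.07 with arrays centred on their medians. AT2G23120 had one of 0.07 (-0.58 to 0.71), which turned to -0.009 and -0.005 in these settings. COR47 and AT1G54410 stayed higher in thiosulfate under both scalings, at 0.17 and 0.31 after quantile normalization and at 0.13 and 0.28 after centring.

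**Figure D3:**
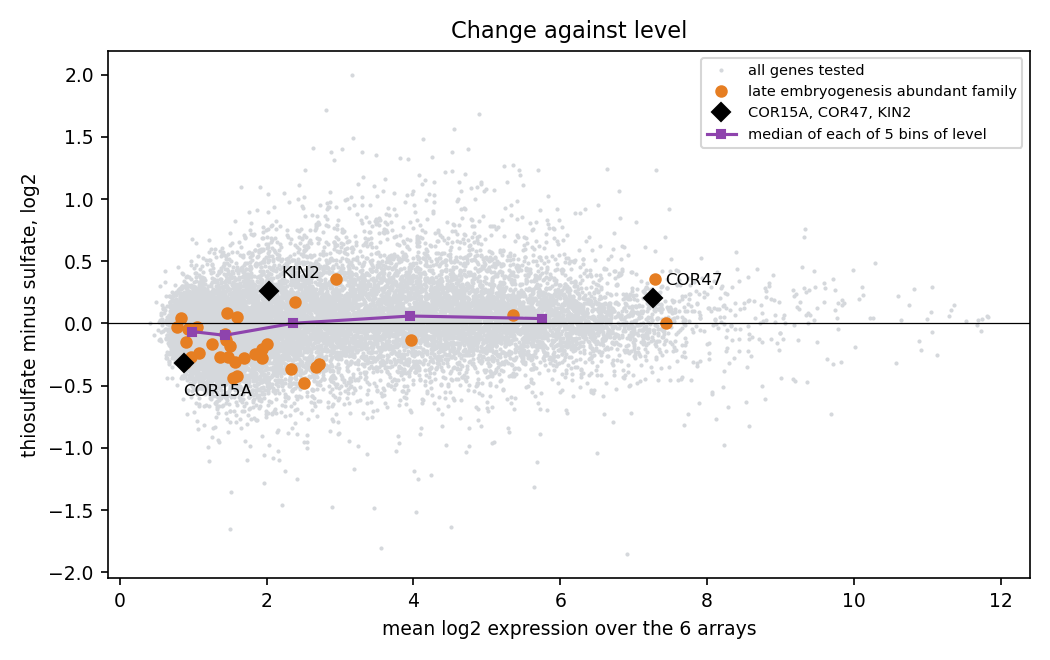
Each grey dot is one of the 16548 genes, placed by its mean log2 level over the 6 arrays (horizontal) and its thiosulfate minus sulfate difference (vertical, log2), with LEA genes in orange, the 3 members as black diamonds and the median of each of the 5 bins in purple. COR15A lies at the dim end, where the purple line is below 0 (-0.06 and -0.10 in the first 2 bins), and COR47 at the bright end, where it is above 0 (0.04) as deposited and below 0 (-0.03) after quantile normalization or median centring.

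Over the settings tried, the direction of each member's difference did not turn, but its size depended on single arrays. Leaving out each array in turn gave differences from -0.41 to -0.25 for COR15A, from 0.06 to 0.39 for COR47 and from 0.03 to 0.43 for KIN2. COR15A had an unadjusted limma p under 0.05 after median centring (0.041), with an intensity trend (0.047) and without sulfate replicate 2 (0.040). Centring used the medians of all 38408 rows. These were 2.48, 2.42 and 2.41 on the thiosulfate arrays and 2.37, 2.38 and 2.35 on the sulfate arrays. The medians of the genes tested were 2.36, 2.38 and 2.39 in thiosulfate and 2.36, 2.39 and 2.34 in sulfate. Over all settings with a test, the limma adjusted p ran from 0.42 to 0.80 for COR15A, from 0.54 to 0.97 for COR47 and from 0.58 to 0.98 for KIN2.

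**Figure D4:**
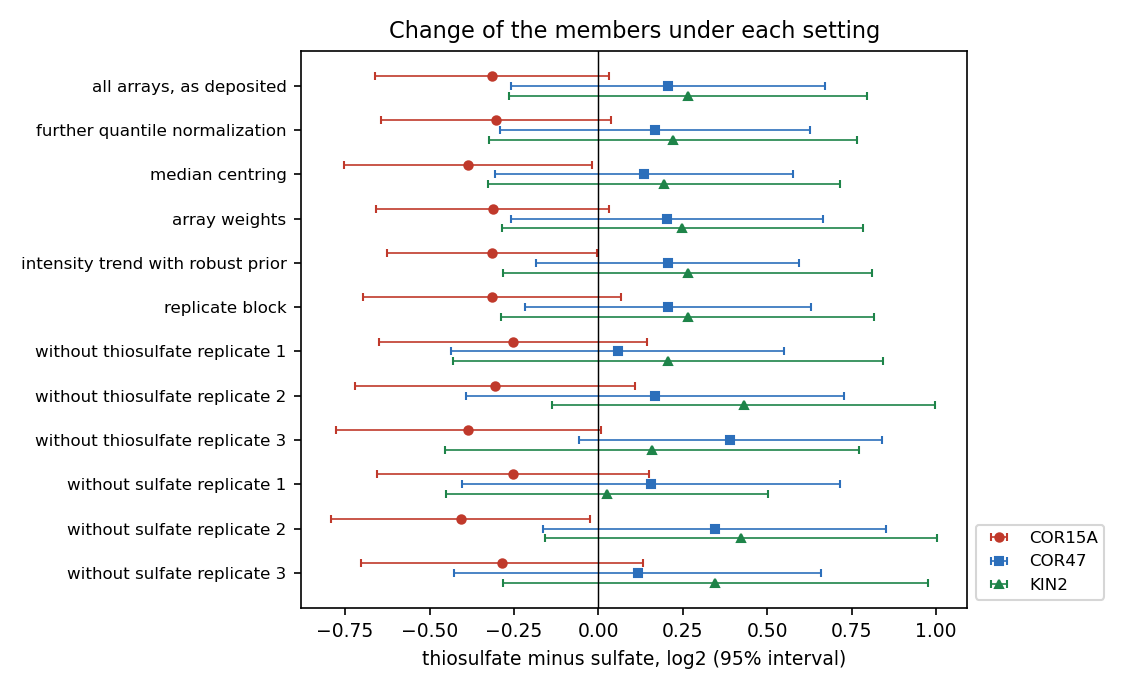
Differences between thiosulfate and sulfate (log2, points) with 95% limma intervals (bars) are shown for COR15A, COR47 and KIN2 with all arrays, under other scalings and models, and with each array left out. The COR47 point falls to 0.06 without thiosulfate replicate 1 and the KIN2 point to 0.03 without sulfate replicate 1.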

How the data were processed

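The authors deposited log2 expression values for 38408 rows on 6 arrays, made with RMA in Transcriptome Analysis Console 4.0 per the submitters' processing notes. RMA corrects background, normalizes quantiles across arrays and summarises probes. The sources used here do not give the RMA variant, the build, any filter or the dates of scanning, and no batch was tested. Groups and replicate numbers come from the titles, which do not say whether replicates came from separate cultures. The p-values then measure only how far these samples spread, which may be technical. Rows were named through the platform's annotation (1 gene for 16722 rows, several for 759, 20927 not listed) and symbols were updated through RefSeq TAIR10.1, which matched 16574 rows. Of several rows for a gene the one with the highest mean was used, which left 16548 genes.

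Differences, thiosulfate minus sulfate, came from limma 3.58.1 under R 4.3.3 (group term, empirical Bayes, two-sided, Benjamini-Hochberg adjustment over all genes, threshold 0.05) and tested on simulated data. Single values also had exact permutation tests over the 20 splits of the arrays. The members and lists were chosen with earlier results of these data known. Lists were written from textbook knowledge. The genes named were the members, their neighbours, every measured gene of lists of up to 8 and the 5 largest changes of longer ones, the 3 most like patterns per member, the tissue markers and genes past the threshold. LTI30, AT4G33980, AT1G54410, DI21 and AT2G23120 fall outside this rule and were named after their values were seen. Alternatives were further scaling, filters on dim genes, other rules for rows, other variance models, weights for arrays, a block by replicate number and leaving out each array. Arrays of the same number deviated from their group means with correlations of 0.056, -0.025 and -0.032, so the numbers were not taken to pair arrays. Plots used Python 3.11.15 and matplotlib 3.10.9.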

Additional observations from a re-analysis of the deposited data

How the results depend on the processing

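COR15A, COR47 and KIN2 kept their direction and stayed short of the threshold under every setting that gave a value. COR15A falls out with the filter on dim genes that keeps 12411, and KIN2 and COR15A with the one that keeps 8274. Measured from the dimmest of 5 bins of genes on each array, a setting chosen after seeing the data, COR15A had a difference of -0.24. The count of genes past limma's adjusted threshold was 2, and it was 1 among the 8274 brighter genes, 0 when every row was tested (3502 rows at an unadjusted p under 0.05) and 0 to 2 with 1 array left out. In the fit with a replicate block 0 genes passed in limma (1717 at an unadjusted p under 0.05), and no call on a member changed. The COR47 minus KIN2 difference in change ran from -0.26 to 0.23 with 1 array left out, and turned without thiosulfate replicate 3 and without sulfate replicate 1. With 1 array left out, the median of the cold list ran from -0.25 to -0.079, the weakest without sulfate replicate 3, that of the LEA list from -0.21 to -0.11, that of the KIN list from -0.087 to 0.089, and that of the abscisic acid and osmotic genes from 0.026 to 0.34. The median over all genes moved from -0.016 to -0.087 after median centring, where 5 LEA genes had higher and 31 lower means in thiosulfate, against 9 and 27 as deposited, and the share of all genes with a lower mean was 64.9%, against 52.9%. The unadjusted calls over all genes, 892 higher and 768 lower as deposited, became 635 and 1050 after quantile normalization, 585 and 1286 after median centring, and 708 and 318 among the 8274 brighter genes. The causes were not tested. No detection call was used, so signal over background limits what COR15A, COR15B and KIN1 can show.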
